A study of Mus musculus with 22 samples.

Results

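Primary microglia in which Atg5 had been targeted with an siRNA were compared with microglia given a control transfection, both under lipopolysaccharide (LPS), the bacterial cell wall component that activates these cells through Toll-like receptor 4. The comparison rests on 8 of the 22 poly(A)-selected RNA-seq libraries of the series: the 5 labelled LPS+siAtg5 and the 3 labelled LPS+dNC. All came from C57BL/6 mouse microglia, shaken off mixed cortical glia of pups aged 1 to 3 days after 8 to 10 days of culture. Cells of the LPS+siAtg5 group received 50 nM Atg5 siRNA with a lipid reagent for 48 h and then LPS at 100 ng/ml for 24 h. Cells of the LPS+dNC group received a control siRNA with the same reagent and the same LPS. The labels do not spell out dNC, and whether the 50 nM applied to the control siRNA too is not clear from them. A further 3 libraries, labelled LPS, came from microglia given LPS with no transfection in their label, and they serve here to show which of the 2 transfected groups had moved. The other untransfected libraries, 5 labelled LPS+Baf A1 and 6 labelled LPS+CLA, had the same LPS with 10 nM Baf A1 or 50 nM CLA, names that the labels do not spell out. They serve as a second outside comparison, and they also enter the filter on levels and the spread behind the limma p-values. Nothing in the labels says that replicates were separate cultures. The spread behind the p-values, which for limma is pooled within the groups of all 22 libraries, may therefore be technical.

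Atg5 is the acceptor of the ubiquitin-like protein Atg12, and the Atg12-Atg5-Atg16l1 complex directs the attachment of LC3 to the growing autophagosome membrane. Cells that lack it cannot complete this step of autophagy, the route by which cytoplasm, organelles and lipid droplets reach the lysosome. In microglia exposed to LPS, NF-kB and interferon-regulated transcription factors switch on cytokines, chemokines and interferon-stimulated genes, while genes of the resting state are turned down.

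Levels are given as FPKM (fragments per kilobase of transcript and per depth of the library), and changes as differences of log2(FPKM + 1), LPS+siAtg5 minus LPS+dNC, which understate the change of genes with low levels. Of 15725 gene symbols, 11070 reached 1 FPKM in at least 3 libraries and were tested. For each gene that was called at an adjusted p under 0.05 (limma, Benjamini-Hochberg over all genes tested) with a change of at least 1 on the log2 scale, the share of that change that was left when LPS libraries took the place of LPS+dNC libraries was computed. Under 25% means that the difference from LPS+dNC was largely not seen against LPS, and it is described as made by the LPS+dNC columns alone. LPS+siAtg5 libraries then lay closer to LPS than to LPS+dNC libraries or, where the share is clearly negative, differed from LPS in the opposite direction. Il10 (-86.3%) and Abcg1 (-59.6%) were of the latter kind. Less than 25% of a large change can still be a difference without overlap. Cx3cr1 (21.3% left) was at 12.98 to 14.77 FPKM in LPS+siAtg5 and 5.88 to 9.63 FPKM in LPS libraries. Over 75% means that LPS+siAtg5 lay apart from both other groups, and 25 to 75% that both transfected groups contributed. LPS cells were not transfected, so this share does not separate the siRNA target from transfection itself.

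The LPS+dNC columns stood apart from the other columns of the table in several ways. Their headers name no unit, whereas those of the other groups end in FPKM. Plin2, the coat protein of lipid droplets, has 2 lines in the table that are identical in 19 libraries and differ only in these columns, averaging 929.8 FPKM on one and 0.253 FPKM on the other, against 528.9 FPKM on both lines in LPS+siAtg5 libraries. In addition 5 symbols (Ces2b, Exosc6, Gm20594, Gm8909 and Kcnh6) reached at least 1 FPKM in each LPS+dNC library and were listed at 0 in all 19 other libraries, with a mean of up to 102 FPKM. No other group had such a gene. Their summed FPKM was also the highest, at 556496 to 575125 per library, against 475285 to 482854 in LPS+siAtg5 and 469750 to 506565 in LPS libraries. LPS+dNC replicate 1 lay farther from the other 2 LPS+dNC libraries than they lay from each other. How these columns were made, and its part in the differences given here, was not tested.

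LPS+siAtg5 libraries detected more genes. Between 10752 and 10908 genes reached 1 FPKM in them, against 9191 to 9571 in LPS+dNC and 9245 to 9394 in LPS libraries. Relative to LPS+dNC, 6594 of the 11070 genes were higher (59.6%) and 2394 were lower (21.6%) in LPS+siAtg5. Calls with a change of at least 1 on the log2 scale were 2034 higher (18.4%) and 530 lower (4.79%). The median change over all genes was 0.34. Median-of-ratios scaling of the libraries moved that median to 0.06 and the share of calls that were higher to 54.1%, against 73.4% with FPKM as deposited, and quantile normalization moved them to -0.01 and 49.1%. Many small changes, and some of the larger ones, therefore depend on the scaling: quantile normalization turned the 0.53 of Olig2 to -0.30, the -0.45 of Grn to 0.18 and the -0.34 of Npc2 to 0.11.

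Rises and falls differed in how much they owed to the LPS+dNC columns. Of the 2034 genes that were higher by at least 1, 1248 (61.4%) kept more than 75% of the change against LPS, 573 (28.2%) kept 25 to 75%, and 213 (10.5%) kept less than 25%. Of the 530 that were lower, 126 (23.8%) kept more than 75%, 180 (34%) kept 25 to 75%, and 224 (42.3%) kept less than 25%. A gene could pass the filter through the LPS+siAtg5 libraries alone, which favours rises that kept more than 75%. With a filter of 5 FPKM, 563 rises kept more than 75%, 459 kept 25 to 75% and 193 kept less than 25%. The falls were then 122, 166 and 190. For comparison, LPS+siAtg5 against LPS gave 6777 genes higher (61.2%) and 1725 lower (15.6%), and LPS+dNC against LPS gave 3214 higher (29%) and 3115 lower (28.1%). By at least 1, LPS+siAtg5 against LPS gave 1609 genes higher (14.5%) and 253 lower (2.29%), and LPS+dNC against LPS gave 491 higher (4.44%) and 375 lower (3.39%). The 3 comparisons share libraries and are not independent of each other. Leaving out 1 library in turn moved between 0 and 9 of up to 155 named genes over a border of these shares, among them Cxcl3, Cxcl10, Pparg, Trem2 and Cx3cr1.

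The choice of outside libraries mattered more. With the mean of LPS, LPS+Baf A1 and LPS+CLA in place of LPS, 38 of 155 named genes changed class, and the classes given for them below hold only against LPS. For 21 the share came down from over 75% to 25 to 75%: Casp4 (33.4% left), Ccr1 (68.8%), Cd69 (47.6%), Cd86 (57.8%), Cxcl14 (63%), Me1 (52.6%), Mecr (36.6%), Nqo1 (72.8%), Gclm (64.4%), Top2a (64.8%), Pros1 (55.8%), H2-Q6 (61.2%), H2-Q7 (72.5%), Mag, Cat, Oas1g, and the interferon genes Rsad2, Ifit1, Ifit1bl1, Slfn4 and Cxcl10. For 8 it came below 25%, namely Vsir (0.629%), Ccl4 (15.5%), Psmb9 (14%), Oas2, Gbp5, Isg15, Psat1 and Acaca. For Bnip3, Il12b, Urah and Spp1, which the LPS+dNC columns alone moved relative to LPS, it came to 25 to 75%. For others, among them Trem2, Tgfbi, Syt1 and Dcx, it exceeded 75%. Cmpk2, Nlrc5 and Bst2, which are given below but lie outside the 155, changed class too.

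**Figure D1:**
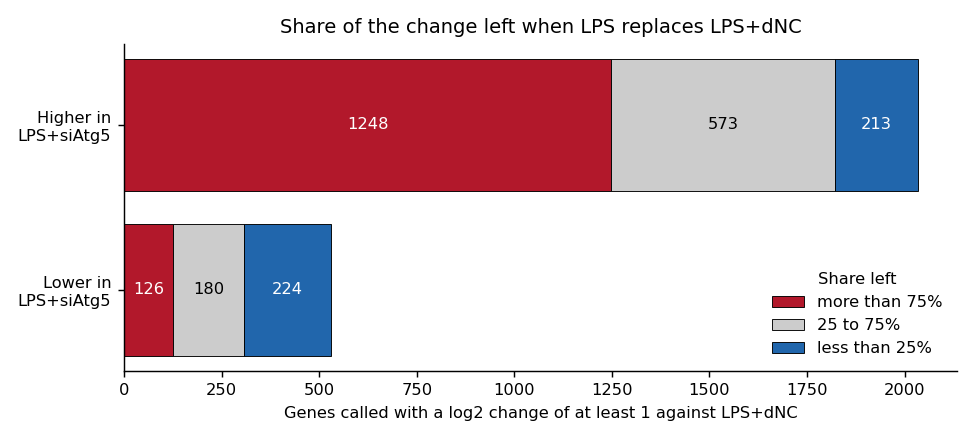
Number of genes called with a log2 change of at least 1 in LPS+siAtg5 against LPS+dNC, by direction, divided by the share of the change left when LPS libraries replaced LPS+dNC libraries. Among genes higher in LPS+siAtg5, 1248 of 2034 kept more than 75%, whereas among genes lower in LPS+siAtg5, 224 of 530 kept less than 25%. With a filter of 5 FPKM in place of 1 FPKM, 563 higher genes kept more than 75%.

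The targeted gene was lower in the libraries labelled as its knockdown. Atg5 (GRCm38, chr10:44268358-44364291, plus strand) was at 13.27, 13.51, 12.86, 12.59 and 13.24 FPKM in LPS+siAtg5 libraries, at 24.26, 21.36 and 21.39 FPKM in LPS+dNC libraries, and at 20.41, 20.06 and 19.83 FPKM in LPS libraries. Every LPS+siAtg5 library lay below every library of both other groups. The change was -0.73 on the log2 scale (SE 0.048, limma adjusted p = 4.05e-12), with an exact two-sided permutation p of 0.0179, the smallest possible with 5 against 3 libraries. Fitted on the 2 compared groups alone, limma gave Atg5 an adjusted p of 6.11e-07. Atg5 was lower by 0.58 against LPS (adjusted p = 2.91e-10), 80.3% of the change, so the LPS+dNC columns alone did not make it.

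Most tested markers of cells other than microglia were higher in LPS+siAtg5 libraries than in both other groups, and because they bear on every group of genes that rose they are given first. Gfap, the intermediate filament of astrocytes, was at 124.2, 133.5, 113.9, 132.1 and 125.8 FPKM in LPS+siAtg5 libraries. It was at 0.17, 3.99 and 2.27 FPKM in LPS+dNC and at 1.42, 1.83 and 2.89 FPKM in LPS libraries. All LPS+siAtg5 libraries were far above all others, and LPS+dNC replicate 1 was the lowest of the 11. The change was 5.57 (SE 0.29, limma adjusted p = 2.31e-13), with 97.1% left against LPS.

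The 6 largest rises among genes that kept more than 75% of the change against LPS were Gfap, Igfbp2, Aqp4, Cnn3, Slc1a3 and A2m. Igfbp2, an insulin-like growth factor binding protein, was at 88.8, 103.9, 83.3, 97.24 and 79.42 FPKM in LPS+siAtg5 libraries and at 0.56, 1.85 and 0.9 FPKM in LPS+dNC libraries (change 5.48). Aqp4, the water channel of astrocyte endfeet, averaged 53.42 ± 2.06 FPKM in LPS+siAtg5, against 0.337 ± 0.255 FPKM in LPS+dNC libraries (SD, n = 5 and 3; change 5.36). Slc1a3, an astrocyte glutamate transporter, averaged 42.92 ± 3.13 FPKM in LPS+siAtg5, against 0.88 ± 1.09 FPKM in LPS+dNC libraries (change 4.69), and the protease inhibitor A2m averaged 29.51 ± 2.52 FPKM in LPS+siAtg5, against 0.373 ± 0.43 FPKM in LPS+dNC libraries (change 4.51). Cnn3, a calponin, changed by 4.81, but 17.6% of its 31-base words occur in transcripts of other genes, so its level is less certain.

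Of 13 astrocyte markers tested, all 13 rose (median 2.3), against 59.6% of all genes, and 12 rose by at least 1, each of which kept more than 75% of the change against LPS. Markers in this and the next 3 lists could pass the filter through the LPS+siAtg5 libraries alone, where they were high. Without the filter all 15 astrocyte markers rose (median 2.21). The other members of the list named here were Aldh1l1 (25.53 FPKM in LPS+siAtg5, 1.24 FPKM in LPS+dNC), the transcription factor Sox9 (4.66 FPKM in LPS+siAtg5, 0.227 FPKM in LPS+dNC) and the bicarbonate transporter Slc4a4 (2.96 FPKM in LPS+siAtg5, 0.0633 FPKM in LPS+dNC). All 8 neuron markers that passed the filter rose as well (median 1.93), and without the filter 11 of 12 did (median 1.16). Among them were Stmn2 at 9.66 FPKM in LPS+siAtg5, against 0.527 FPKM in LPS+dNC, and Gad1, the enzyme that makes GABA, at 6.59 FPKM in LPS+siAtg5, against 1.05 FPKM in LPS+dNC. Dcx, of migrating neuroblasts, was at 12.45 FPKM in LPS+siAtg5, against 0.817 FPKM in LPS+dNC, with 57.9% left against LPS. Of 7 oligodendrocyte lineage markers that passed the filter 6 rose (median 1.23, but 0.524 without LPS+dNC replicate 1), and without the filter 8 of 10 rose (median 0.58). These included the myelin genes Mbp, at 15.36 FPKM in LPS+siAtg5, against 3.84 FPKM in LPS+dNC, and Mag, at 4.98 FPKM in LPS+siAtg5, against 1.57 FPKM in LPS+dNC. Of 9 fibroblast, mural and endothelial markers, 6 rose, near the 59.6% of all genes, and Kdr fell, and without the filter 8 of 11 rose. Of the 6 that changed by at least 1, 5 kept more than 75% against LPS. Dcn rose only over LPS+dNC and was lower than in LPS libraries (-38.2% left). Acta2, the actin of mural cells, changed by 4.35, and the collagen Col1a1 was at 21.09 FPKM in LPS+siAtg5, against 1.71 FPKM in LPS+dNC libraries.

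Summed over its list, astrocyte marker FPKM was 392.5 to 455.8 in LPS+siAtg5 libraries, 28.19 to 61.57 in LPS+dNC and 29.44 to 33.65 in LPS libraries. The neuron sum was 63.97 to 79.28, against 2.84 to 16.48 in LPS+dNC and 17.11 to 20.17 in LPS libraries, and the sum for fibroblast, mural and endothelial genes was 94.82 to 127.4, against 9.71 to 20.05 in LPS+dNC and 26.83 to 27.95 in LPS libraries. No sum of these 3 lists overlapped between LPS+siAtg5 and either other group. The oligodendrocyte lineage sum differed far less, at 101.8 to 107.2 in LPS+siAtg5, 79.05 to 92.84 in LPS+dNC and 72.54 to 84.71 in LPS libraries. The sum of the 10 microglia markers was 2451 to 2579 in LPS+siAtg5, 1872 to 1936 in LPS+dNC and 2632 to 3143 in LPS libraries, so that microglial genes dominated in every library. More cells of a type and more RNA per cell cannot be told apart in bulk samples. The part of these other cell types in the rises and falls of other gene groups was not tested.

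**Figure D2:**
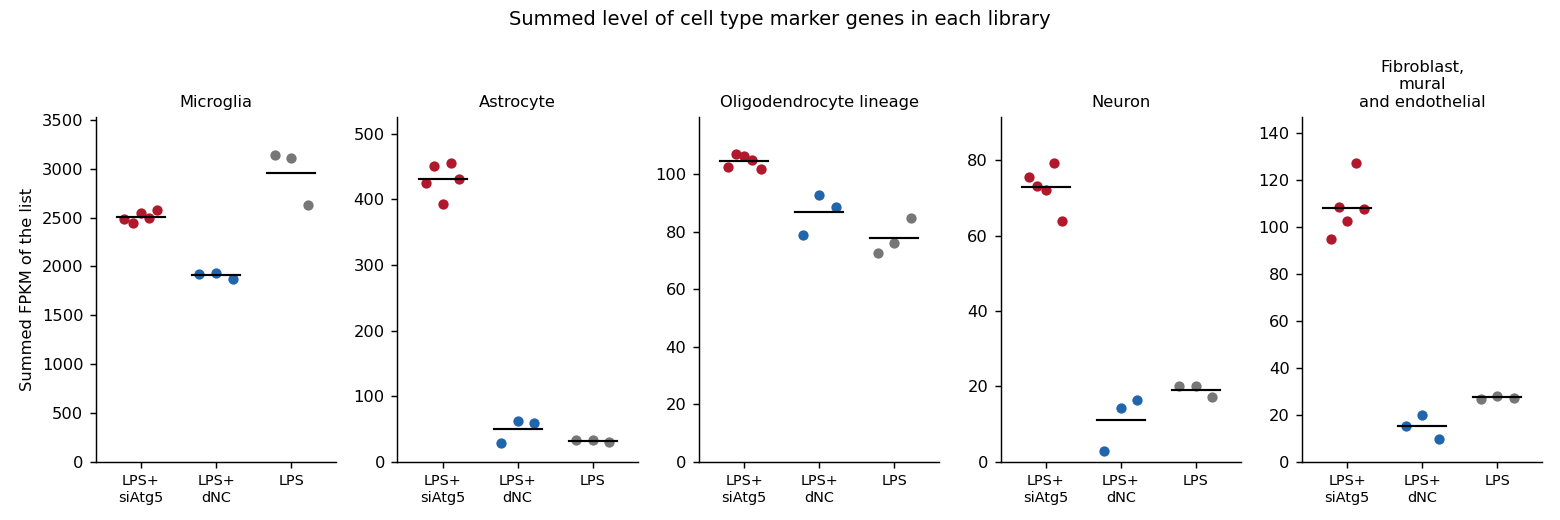
Summed FPKM of cell type marker genes (vertical axes, linear and starting at 0) in each library of LPS+siAtg5 (red, 5), LPS+dNC (blue, 3) and LPS (grey, 3), with the group mean as a bar. The 5 LPS+siAtg5 libraries sit between 392.5 and 455.8 for astrocyte markers and above both other groups for neuron and for fibroblast, mural and endothelial markers, while microglia markers were lowest in LPS+dNC libraries.

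Other genes of the conjugation machinery that Atg5 belongs to went both ways. Of 17 genes of LC3 and Atg12 conjugation, 7 rose and 9 fell (median -0.25), against 59.6% and 21.6% of all genes. Atg12, the partner of Atg5, was at 16.11 ± 0.505 FPKM in LPS+siAtg5, 29.59 ± 0.812 FPKM in LPS+dNC and 14.74 ± 0.554 FPKM in LPS libraries (SD, n = 5, 3 and 3). The Atg12 fall of 0.84 was thus made by the LPS+dNC columns alone. Likewise Atg4d, a protease that processes LC3 relatives, was at 3.63 FPKM in LPS+siAtg5, 12.09 FPKM in LPS+dNC and 4.47 FPKM in LPS libraries, and 16.3% of its fall was left. Atg3, the enzyme that transfers LC3, fell by 0.26 with 94% left. Atg16l1, the remaining member of the complex, fell by 0.35 (adjusted p = 1.68e-06), with 70.1% left. The LC3 gene Map1lc3b rose by 0.37 with 47.8% left, and Gabarapl1, a relative of LC3, was at 43.38 FPKM in LPS+siAtg5, against 23.71 FPKM in LPS+dNC and 23.51 FPKM in LPS libraries.

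Other autophagy genes moved in both directions. Of 18 initiation and nucleation genes, 9 rose and 3 fell, near the 59.6% and 21.6% of all genes. Their median of 0.22 became -0.07 once libraries were scaled by median of ratios and -0.17 once they were quantile normalized. Uvrag, a subunit of a class III PI3-kinase complex, was at 16.31 FPKM in LPS+siAtg5, 25.02 FPKM in LPS+dNC and 24.94 FPKM in LPS libraries (change -0.59, 99.6% left). Ulk2, a kinase that starts autophagosome formation, was at 12.43 FPKM in LPS+siAtg5, 6.69 FPKM in LPS+dNC and 7.15 FPKM in LPS libraries (change 0.81, 89.7% left). Of 12 cargo receptors, 6 rose and 2 fell, also near the shares of all genes, with a median of 0.28 (-0.03 under median-of-ratios scaling, 0.25 under quantile normalization). Ncoa4, the receptor for ferritin, rose by 1.12 through the LPS+dNC columns alone. The mitochondrial receptor Bnip3 fell by 1.41, with none of the change left against LPS, but 67.3% was left against the mean of the 3 untransfected groups. Bnip3 was at 19.36 to 20.77 FPKM in LPS+siAtg5, 40.55 to 74.85 FPKM in LPS+dNC, 45.55 to 56.02 FPKM in LPS+Baf A1, 58.31 to 70.3 FPKM in LPS+CLA and 17.13 to 22.66 FPKM in LPS libraries. Sqstm1, which encodes p62, was at 342.8 FPKM in LPS+siAtg5, 337.5 FPKM in LPS+dNC and 548.6 FPKM in LPS libraries, and it was not called between the first 2 groups (change 0.05, adjusted p = 0.646), though without LPS+dNC replicate 1 it was (0.22, adjusted p = 0.00797).

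Lysosomal genes went both ways, and several of their largest differences came from the LPS+dNC columns. Of 36, 19 rose and 9 fell, against 59.6% and 21.6% of all genes, with a median of 0.23. Median-of-ratios scaling made that 11 and 17 (median -0.10), whereas quantile normalization made it 23 and 7 (0.32). Ctsb, the protease cathepsin B, was at 1767, 1802, 1782, 1748 and 1741 FPKM in LPS+siAtg5 libraries, at 4713, 3926 and 3525 FPKM in LPS+dNC libraries and at 1734, 1697 and 1903 FPKM in LPS libraries. LPS+dNC libraries were alone in being high, and of the change of -1.19 only 0.572% was left against LPS. Ctsc and Ctsa, further lysosomal proteases, differed in the opposite direction (1.51 and 1.04) and also through low LPS+dNC values. Hexa, a subunit of hexosaminidase, was at 234.5 FPKM in LPS+siAtg5, 83.68 FPKM in LPS+dNC and 126 FPKM in LPS libraries, with 59.8% left, and the membrane protein Lamp1 rose by 0.41 with 6.56% left.

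Pro-inflammatory cytokines and enzymes fell, and for most of those with large changes LPS+siAtg5 libraries lay below LPS libraries as well. Of 19 tested, 18 were called lower in LPS+siAtg5 (median -1.55), against 21.6% of all genes, and Csf2 was not called (-0.14). Of the 13 that changed by at least 1, 6 kept more than 75% of the change against LPS, 4 kept 25 to 75%, and 3 kept less than 25%. Their median against LPS was -1.01.

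Il1a, the cytokine interleukin-1 alpha, was at 13.03, 13.98, 13.73, 14.06 and 14.98 FPKM in LPS+siAtg5 libraries, at 90.09, 265.9 and 243.7 FPKM in LPS+dNC libraries, and at 128.6, 159.8 and 153.3 FPKM in LPS libraries. No LPS+siAtg5 value came near the others, while LPS+dNC replicate 1 was the lowest of the 6 other libraries. The change was -3.60 (SE 0.22, adjusted p = 4.11e-12), with 91.8% left, the largest fall among genes that kept more than 75%. Il6 was at 5.94, 5.25, 5.56, 6.27 and 6.08 FPKM in LPS+siAtg5, at 33.35, 54.5 and 55.57 FPKM in LPS+dNC and at 41.94, 46.76 and 54.04 FPKM in LPS libraries. Its change of -2.81 was as large against LPS (-2.83), since both controls were alike.

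Nos2, the inducible nitric oxide synthase, divided its change between the groups. It was at 16.12, 19.19, 16.66, 17.4 and 13.87 FPKM in LPS+siAtg5, at 539.96, 490.26 and 582.63 FPKM in LPS+dNC and at 169.63, 169.13 and 221.82 FPKM in LPS libraries. The 3 groups did not overlap, with LPS in the middle. The change was -4.94 (SE 0.16, adjusted p = 8.12e-17), of which 69% was left, and LPS+dNC lay 1.53 above LPS.

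Il1b behaved in the opposite way. LPS+siAtg5 libraries were at 188.9, 173.8, 205.6, 185.4 and 231.2 FPKM, LPS+dNC libraries at 389.9, 591 and 509.9 FPKM and LPS libraries at 884, 970.4 and 1060 FPKM. The control transfection columns were themselves below LPS by 0.98, so the fall of 1.32 against LPS+dNC was smaller than that of 2.30 against LPS. Tnf, the cytokine tumour necrosis factor, fell by 0.67 (adjusted p = 0.000146; 158.7 ± 5.91 FPKM in LPS+siAtg5, against 254.4 ± 27 FPKM in LPS+dNC, SD, n = 5 and 3), and 74.8% was left against LPS. The inflammasome sensor Nlrp3 and the caspase Casp4, which senses intracellular LPS, fell by 1.55 and 1.76 with 116% and 83.2% left. Acod1, the enzyme that makes itaconate, fell by 1.55 with 65.3% left.

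For 3 members little or none of the fall was left against LPS. Il12b, a subunit of interleukin-12 and interleukin-23, was at 0.148 FPKM in LPS+siAtg5, 7.85 FPKM in LPS+dNC and 0.407 FPKM in LPS libraries. However, Il12b was at 5.27 to 7.29 FPKM in LPS+Baf A1 and 0.54 to 0.87 FPKM in LPS+CLA libraries, and 40.7% of its fall was left against the mean of the 3 untransfected groups. Il18 was at 38.16 FPKM in LPS+siAtg5, 86.88 FPKM in LPS+dNC and 29.52 FPKM in LPS libraries. The remaining one was Il19, a relative of interleukin-10, which had the largest fall of the list. It was at 1.17, 2.09, 1.22, 2.16 and 1.3 FPKM in LPS+siAtg5 libraries, at 118.27, 168.61 and 252.31 FPKM in LPS+dNC and at 0.65, 1.34 and 1.59 FPKM in LPS libraries. LPS+siAtg5 and LPS libraries overlapped, and the change of -6.08 against LPS+dNC stood beside one of 0.24 against LPS (adjusted p = 0.474).

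**Figure D3:**
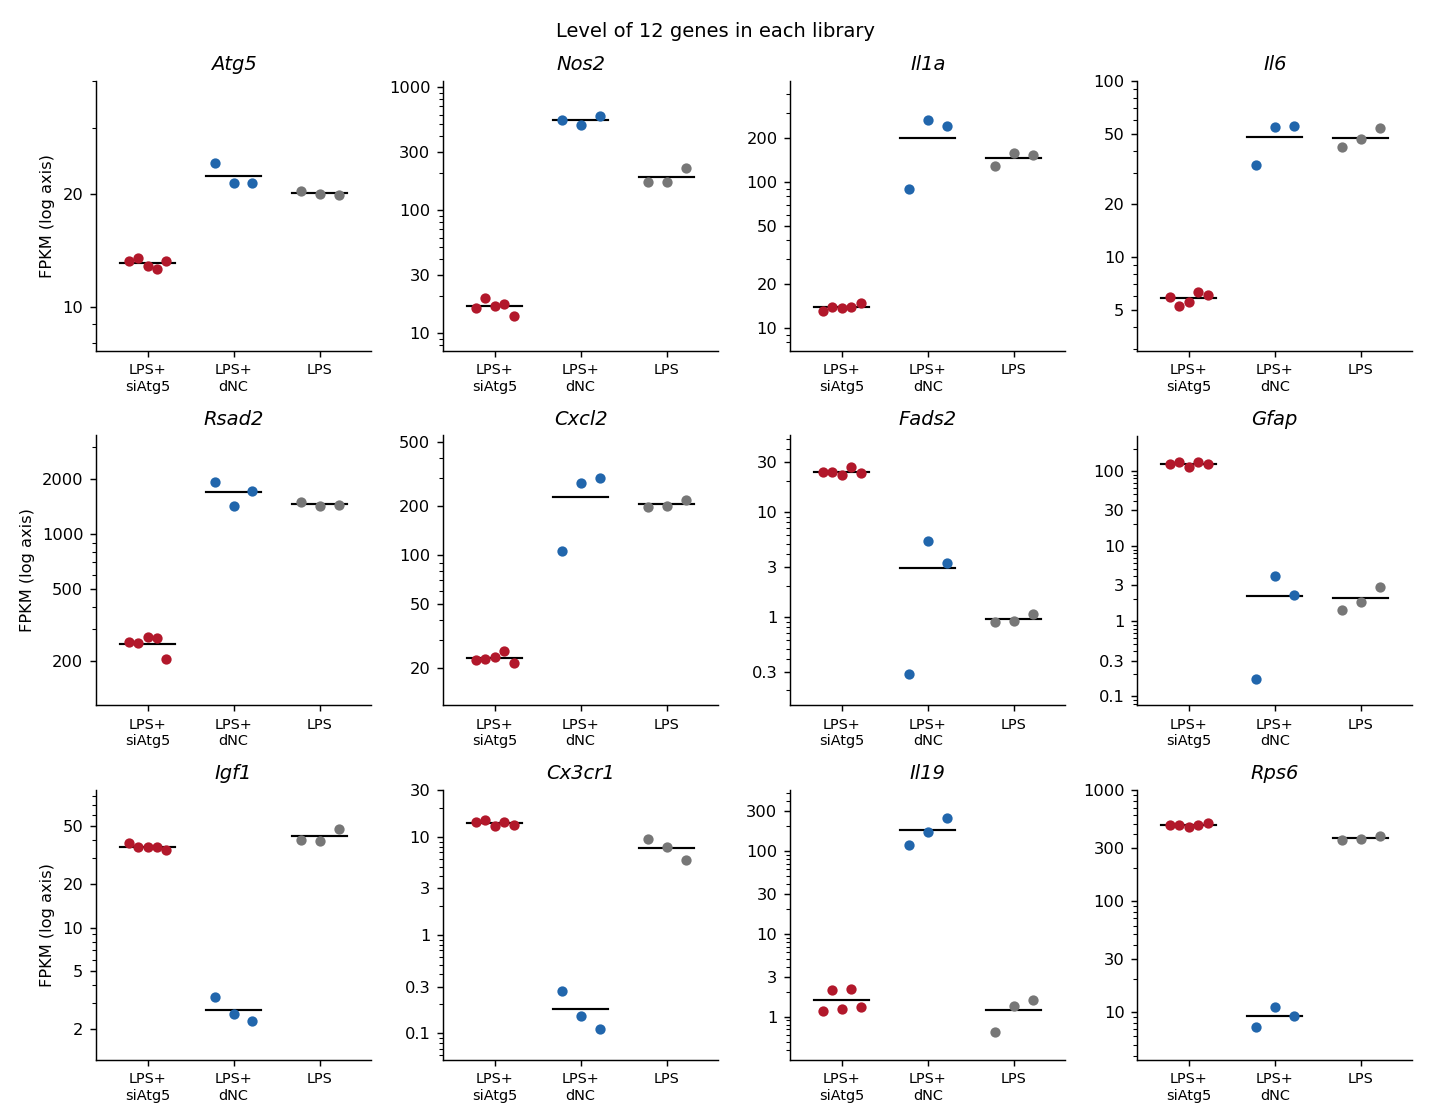
FPKM of 12 genes (log axes) in each library of LPS+siAtg5 (red, 5), LPS+dNC (blue, 3) and LPS (grey, 3), with the group mean as a bar. Il1a, Il6, Rsad2, Cxcl2, Fads2 and Gfap set the LPS+siAtg5 libraries apart from both other groups, Nos2 has LPS between the others, and Igf1, Cx3cr1, Il19 and Rps6 set the LPS+dNC libraries apart.

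Ptgs2 belongs to both the cytokine and the eicosanoid lists. Ptgs2, the inducible cyclooxygenase, averaged 12.27 ± 0.618 FPKM in LPS+siAtg5, 115.7 ± 31.1 FPKM in LPS+dNC and 112.5 ± 13.5 FPKM in LPS libraries (SD, n = 5, 3 and 3; change -3.10, 99.6% left). Among 19 phospholipase A2 and eicosanoid genes, 13 rose and 3 fell (median 0.48), near the 59.6% and 21.6% of all genes, and after quantile normalization 7 rose and 6 fell (median 0.01). The epoxide hydrolase Ephx1 rose by 3.54 with 99.3% left. Ptgs1, the constitutive cyclooxygenase, was at 2.37 FPKM in LPS+siAtg5, 0.373 FPKM in LPS+dNC and 3.35 FPKM in LPS libraries. It thus rose only over LPS+dNC and was lower than in LPS libraries.

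Chemokines fell in 12 of 18 cases and rose in 5 (median -1.6), against 21.6% and 59.6% of all genes. Neutrophil attractants showed the same pattern as Il6. Cxcl2 was at 22.45, 22.94, 23.34, 25.41 and 21.57 FPKM in LPS+siAtg5 libraries, at 106.1, 278.1 and 300.3 FPKM in LPS+dNC and at 197.6, 202.5 and 219.3 FPKM in LPS libraries. Cxcl3 was at 4.97, 4.74, 4.3, 5.51 and 4.77 FPKM in LPS+siAtg5, at 11.79, 100.4 and 148.1 FPKM in LPS+dNC and at 49.26, 56.8 and 63.49 FPKM in LPS libraries. Both were lowest in all 5 LPS+siAtg5 libraries, and in both LPS+dNC replicate 1 was well below the other 2. Their changes were -3.11 and -3.31, with 99.8% and 99.5% left. The chemokine receptor Ccr1 fell by 3.28 with 89.4% left.

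Chemokines that interferon induces fell too. Cxcl10 was at 478.3, 508.3, 542.8, 539.1 and 437.6 FPKM in LPS+siAtg5, at 3306, 2561 and 2838 FPKM in LPS+dNC and at 1735, 1713 and 2289 FPKM in LPS libraries, a change of -2.53 with 76% left. Cxcl9 fell by 3.86 with 51.9% left and Ccl4, an attractant of monocytes and T cells, by 2.25 with 37.4% left. Ccl5, a further attractant of T cells, was the exception: it averaged 6297 ± 214 FPKM in LPS+siAtg5, against 7081 FPKM in LPS libraries, and its fall of 1.85 came from the LPS+dNC columns alone (8.58% left). Those that rose by at least 1 were Cx3cl1, Cxcl12 and Cxcl14, which kept 106%, 109% and 87.8%. Cx3cl1, a ligand that neurons make for microglia, was at 4.22 FPKM in LPS+siAtg5, against 0.36 FPKM in LPS+dNC libraries. The neuron and astrocyte marker sums given above were higher in LPS+siAtg5 as well, and their part in its rise was not tested.

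Costimulatory and checkpoint genes were lower in 9 of 11 cases (median -0.96; -1.34 against LPS), against 21.6% of all genes. Cd86, a ligand for T cell activation, was at 5.91 ± 0.627 FPKM in LPS+siAtg5, 48.03 ± 3.26 FPKM in LPS+dNC and 36.15 ± 4.79 FPKM in LPS libraries (SD, n = 5, 3 and 3; change -2.83, adjusted p = 7.34e-19, 85.7% left). The activation marker Cd69 fell by 2.34 with 90% left. Cd274, which encodes PD-L1, fell by 2.02 with 73.2% left and Tnfsf9, the ligand of 4-1BB, by 1.86 with 72.1% left. The one rise was that of Vsir, an inhibitory receptor, which changed by 1.21 with 41.8% left.

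Signalling genes downstream of the LPS receptor were mixed. Of 30, 5 rose and 18 fell (median -0.29; -0.58 under median-of-ratios scaling), against 59.6% and 21.6% of all genes. Negative feedback genes that NF-kB and STAT factors induce were among the clearest falls: Socs3 by 2.03, Socs1 by 2.45, Nfkbia by 1.33 and Nfkb2 by 1.37, which kept 71.3%, 44.3%, 29.1% and 62.6%. Tlr4, the LPS receptor, went the other way. It was at 14.59 FPKM in LPS+siAtg5, 7.37 FPKM in LPS+dNC and 30.1 FPKM in LPS libraries, a rise of 0.90 over LPS+dNC and a fall of 0.99 against LPS. Tlr2, a receptor for bacterial lipoproteins, rose by 1.45 and Ly96, the partner of Tlr4, fell by 1.12, both through the LPS+dNC columns alone (11.3% and 18.5% left).

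Nearly all interferon-stimulated genes fell. Of 40, 38 were called lower in LPS+siAtg5 (median -0.89), against 21.6% of all genes, and 38 and 33 of the 40 were called lower once the libraries were scaled by median of ratios or quantile normalized. Rsad2 encodes viperin, an antiviral enzyme that also sits on lipid droplets. It was at 255.1, 253.4, 271, 267.2 and 205.4 FPKM in LPS+siAtg5, at 1948, 1435 and 1733 FPKM in LPS+dNC and at 1500, 1426 and 1452 FPKM in LPS libraries. All LPS+siAtg5 libraries lay far below all libraries of both other groups. The change was -2.76 (SE 0.096, adjusted p = 5.06e-17), with 92.2% left. Cmpk2, the neighbouring nucleotide kinase, fell by 2.18 with 101% left, and Ifit1, which binds viral RNA, by 1.33 with 107% left.

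Others of this group were shared between the columns. Gbp5, a guanylate-binding protein that acts against intracellular bacteria, was at 93.34, 90.41, 96.64, 91.75 and 83.67 FPKM in LPS+siAtg5, at 454.3, 357.3 and 427.4 FPKM in LPS+dNC and at 209.5, 212.9 and 191.9 FPKM in LPS libraries. Here LPS libraries lay between the others without overlap, and 53.6% of the change of -2.16 was left. Isg15, a ubiquitin-like modifier, was at 709 FPKM in LPS+siAtg5, 1719 FPKM in LPS+dNC and 971.6 FPKM in LPS libraries (change -1.27, 35.8% left), and Oas2, which senses double-stranded RNA, fell by 2.36 with 72.9% left. Among the 19 that changed by at least 1, 8 kept more than 75% against LPS, 10 kept 25 to 75% and only Bst2 kept less than 25%. Bst2 kept 16.8% against LPS and 30.3% against the mean of the 3 untransfected groups. Slfn4 and Ifit1bl1, which lie outside the list, were next to Il1a in the size of their falls among genes that kept more than 75% (-3.58 and -3.45). Of the members called higher, Xaf1, which acts in apoptosis, had a change of 0.21 and changed sign under median-of-ratios scaling.

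Which untransfected libraries serve as the outside comparison mattered for this group as well. Rsad2 was at 359.9 to 459.5 FPKM in the 5 LPS+Baf A1 libraries and at 121.8 to 153.9 FPKM in the 6 LPS+CLA libraries, so both were far below LPS libraries. With the mean of the 3 untransfected groups in place of LPS, 27.8% of the Rsad2 change was left, 29.3% of that of Ifit1, 31% of that of Cmpk2, 10.5% of that of Gbp5 and 25.1% of that of Cxcl10. By contrast 118% was left for Il1a, 112% for Il6, 105% for Cxcl2, 64.5% for Nos2 and 105% for Gfap.

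Promoters of genes that fell are shown here because their members share a named motif, and the letters let the matches be seen. The 250 bases before each RefSeq start of a gene (GRCm38.p6) were searched on both strands. A gene was counted if any of its windows held GAAA, any 2 bases and GAAA, the core of the interferon-stimulated response element. It was in 17 of 32 promoters of the interferon-stimulated list (53.1%), in 318 of 8990 promoters of genes tested (3.54%) and in 936 of 27025 in all (3.46%). Capitals mark the matches in the sequences, which run in the direction of the gene. Each goes from 50 bases before the first match to 50 bases after the last, or to the end of the window where that comes first.
Rsad2, chr12:26456513-26456622, minus strand: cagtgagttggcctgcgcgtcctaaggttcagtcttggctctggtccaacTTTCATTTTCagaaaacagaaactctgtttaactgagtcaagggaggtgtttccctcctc
Ifit1, chr19:34640735-34640863, plus strand: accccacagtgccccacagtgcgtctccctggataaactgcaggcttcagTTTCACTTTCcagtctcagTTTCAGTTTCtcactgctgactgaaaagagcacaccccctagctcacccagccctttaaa
Isg15, chr4:156200825-156200946, minus strand: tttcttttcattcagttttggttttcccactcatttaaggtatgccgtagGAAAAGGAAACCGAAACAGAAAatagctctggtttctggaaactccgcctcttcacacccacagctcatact
Gbp5, chr3:142496719-142496828, plus strand: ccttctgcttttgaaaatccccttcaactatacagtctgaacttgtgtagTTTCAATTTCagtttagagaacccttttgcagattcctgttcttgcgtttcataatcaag
Rsad2 and Gbp5 hold 1 match each, Ifit1 holds 2, and Isg15 holds 3 that overlap each other. The Gbp5 stretch precedes a RefSeq start that lies inside the gene as GENCODE places it (chr3:142493978-142522344). The motif was in 54 of 423 promoters of genes that fell by at least 1 (12.8%) and in 49 of 1609 of those that rose by at least 1 (3.05%). Among the falls it was in 22 of 97 (22.7%) that kept more than 75% of the change, in 20 of 152 (13.2%) that kept 25 to 75% and in 12 of 174 (6.9%) that kept less than 25%. The classes are those against LPS. With the mean of the 3 untransfected groups, 40 lower genes in place of 126 kept more than 75%, and the motif was not counted in those classes. These shares describe letters in a window, carry no test and say nothing of binding.

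A core of the NF-kB site, spelled GGGA, any base, TT, any base and CC, on either strand, was in 4 of 12 chemokine promoters (33.3%; Cxcl1, Cxcl2, Cxcl3 and Cxcl10) and in 126 of 8990 promoters of genes tested (1.4%). The 3 of these genes that are described above are shown.
Cxcl2, chr5:90903752-90903861, plus strand: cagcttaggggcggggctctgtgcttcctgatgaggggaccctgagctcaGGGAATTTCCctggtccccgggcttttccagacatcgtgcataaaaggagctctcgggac
Cxcl3, chr5:90785978-90786087, plus strand: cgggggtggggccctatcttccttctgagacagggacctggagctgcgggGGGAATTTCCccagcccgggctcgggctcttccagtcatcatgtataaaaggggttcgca
Cxcl10, chr5:92348933-92349042, minus strand: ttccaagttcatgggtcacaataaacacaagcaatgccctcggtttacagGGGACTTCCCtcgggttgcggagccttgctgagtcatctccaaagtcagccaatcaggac
Cxcl2 and Cxcl3 hold the same 10 letters. Among genes that fell by at least 1, the motif was in 8 of 97 promoters (8.25%) of those that kept more than 75% against LPS, in 7 of 152 (4.61%) of those that kept 25 to 75% and in 2 of 174 (1.15%) of those that kept less than 25%. These classes, too, hold only against LPS.

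Antigen presentation genes fell in 18 of 20 cases (median -0.88), against 21.6% of all genes. Psmb9, a subunit of the immunoproteasome, was at 40.23 ± 2.59 FPKM in LPS+siAtg5, 201.4 ± 31.7 FPKM in LPS+dNC and 66.59 ± 6.02 FPKM in LPS libraries (SD, n = 5, 3 and 3), so that 31.1% of its change of -2.29 was left. Cd74, the invariant chain of MHC class II, fell by 2.03 with 132% left, and Nlrc5, the transactivator of class I genes, by 1.06 with 127% left (58.6% against the mean of the 3 untransfected groups). Tap2, of the peptide transporter, fell by 1.73 with 24.3% left. The class I genes H2-Q6 and H2-Q7 fell by 3.10 and 2.34 with 89.9% and 108% left, but 50.3% and 39.1% of their 31-base words occur in other genes, and their levels are uncertain for that reason.

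Anti-inflammatory and repair genes did not move together: 4 rose and 8 fell of 15, against 59.6% and 21.6% of all genes. The median of -0.18 was -0.30 without LPS+dNC replicate 1, -0.09 without LPS+dNC replicate 3 and -0.49 with median-of-ratios scaling. Igf1, an insulin-like growth factor, was at 38.33, 36.08, 35.81, 35.93 and 34.19 FPKM in LPS+siAtg5, at 3.34, 2.52 and 2.29 FPKM in LPS+dNC and at 40.15, 39.51 and 47.58 FPKM in LPS libraries. Its rise of 3.33 was made by the LPS+dNC columns alone, which lay 3.55 below LPS. Il10, the anti-inflammatory cytokine, was at 26.38, 25.02, 25.02, 28.48 and 22.65 FPKM in LPS+siAtg5, at 105.8, 89.8 and 105.8 FPKM in LPS+dNC and at 5.71, 5.98 and 11.24 FPKM in LPS libraries. Here the direction turned with the comparator: Il10 was lower by 1.94 against LPS+dNC and higher by 1.67 against LPS.

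Il1rn, the interleukin-1 receptor antagonist, averaged 192.1 ± 14.7 FPKM in LPS+siAtg5, 1835 ± 227 FPKM in LPS+dNC and 725 ± 126 FPKM in LPS libraries (SD, n = 5, 3 and 3; change -3.25, 58.6% left). Cd36, a scavenger receptor that takes up oxidised lipoprotein and fatty acids, was at 402.3 FPKM in LPS+siAtg5, 63.09 FPKM in LPS+dNC and 201 FPKM in LPS libraries (change 2.69, 37.1% left). Arg1, arginase, was at 2.38, 2.45, 1.41, 2.47 and 2.43 FPKM in LPS+siAtg5, at 0.92, 15.09 and 21.69 FPKM in LPS+dNC and at 5.4, 5.7 and 9.76 FPKM in LPS libraries. LPS+dNC replicate 1 fell below all LPS+siAtg5 libraries, so the groups overlapped. The limma call (-1.47, adjusted p = 0.00841) had an exact permutation p of 0.1071 and was lost without LPS+dNC replicate 2 (-1.045, adjusted p = 0.0716) and without replicate 3 (-0.80, adjusted p = 0.117), while without replicate 1 it was -2.58.

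The largest differences made by the LPS+dNC columns alone are given for genes that reached 5 FPKM in the higher group without overlap, leaving out predicted gene names. The 6 largest rises of this kind were Rps6, Mmp9, Rps15a, Cx3cr1, Mrpl17 and Igf1. Rps6, a protein of the small ribosomal subunit, was at 487.2, 488.5, 469.4, 482.2 and 509.7 FPKM in LPS+siAtg5, at 7.31, 11.03 and 9.13 FPKM in LPS+dNC and at 353.5, 360.6 and 389.3 FPKM in LPS libraries. Only the LPS+dNC libraries were low. It is one of 3 genes (with Cx3cr1 and Tmem72) whose LPS+dNC libraries lay at least 10-fold below every other library of the series, and 45% of its 31-base words occur in other genes. Rps15a was at 256 FPKM in LPS+siAtg5, 18 FPKM in LPS+dNC and 205.2 FPKM in LPS libraries, and Mrpl17, of the mitochondrial ribosome, at 54.53 FPKM in LPS+siAtg5, 3.85 FPKM in LPS+dNC and 34.2 FPKM in LPS libraries. Mmp9, a secreted matrix protease, was at 82.77 FPKM in LPS+siAtg5, 6.24 FPKM in LPS+dNC and 155 FPKM in LPS libraries.

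The 6 largest falls of this kind were Il19, Lilrb4a, Lyz1, Lipg, Urah and Olfr1033. Lilrb4a, an inhibitory receptor of myeloid cells, was at 24.96 FPKM in LPS+siAtg5, 1010 FPKM in LPS+dNC and 57.38 FPKM in LPS libraries, and Lyz1, a lysozyme, at 5.27 FPKM in LPS+siAtg5, 139.8 FPKM in LPS+dNC and 4.74 FPKM in LPS libraries, although 55.7% and 34.2% of their 31-base words are shared with other genes. Lipg, endothelial lipase, was at 0.558 FPKM in LPS+siAtg5, 32.86 FPKM in LPS+dNC and 1.92 FPKM in LPS libraries, and Urah, of uric acid breakdown, at 1.74 FPKM in LPS+siAtg5, 57.4 FPKM in LPS+dNC and 2.0 FPKM in LPS libraries. The olfactory receptor gene Olfr1033 was at 0.076 FPKM in LPS+siAtg5, against 20.88 FPKM in LPS+dNC, and was listed at 0 in LPS libraries. LPS+dNC libraries lay at least 10-fold above all others for 25 genes and LPS+siAtg5 libraries for 109, and no gene did so in the other groups.

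**Figure D4:**
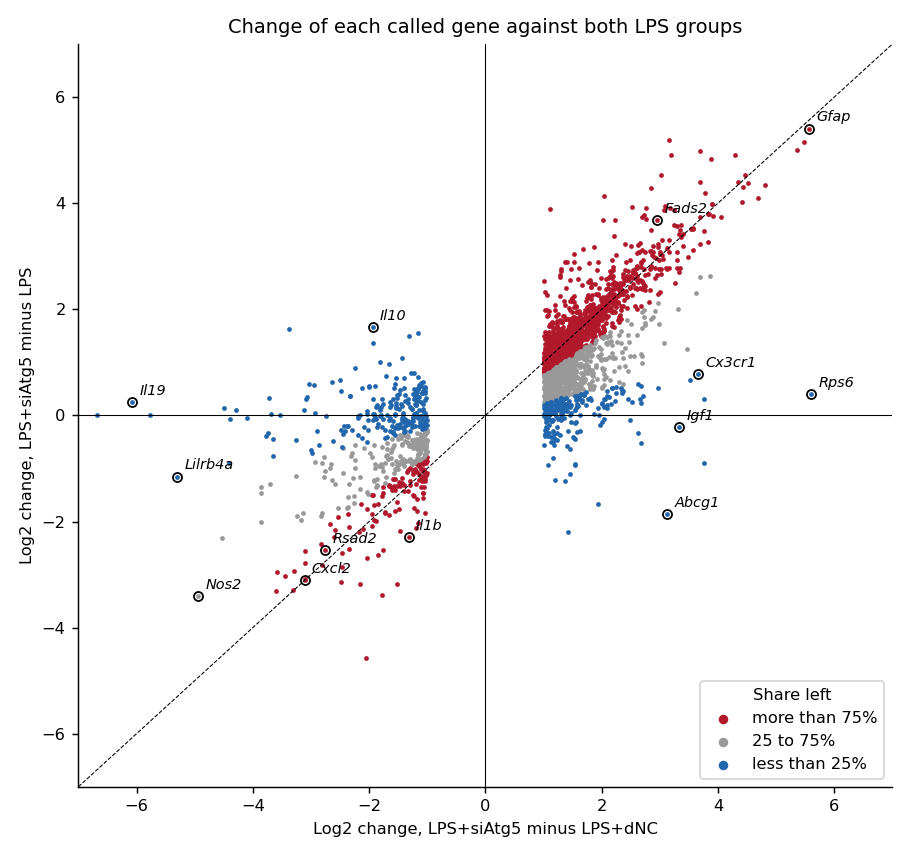
Log2 change of each gene called with a change of at least 1 in LPS+siAtg5 against LPS+dNC (horizontal axis), plotted against its change in LPS+siAtg5 against LPS (vertical axis), in log2(FPKM + 1). Points on the dashed line changed equally in both, such as Gfap (5.57 and 5.41) and Cxcl2 (-3.11 and -3.10), whereas Rps6, Igf1 and Il19 lie near the horizontal line at 0, and Il10 and Abcg1 lie on opposite sides of 0 in the 2 comparisons.

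Genes of fatty acid desaturation and elongation rose together. All 15 tested were called higher in LPS+siAtg5 (median 0.91; 1.14 against LPS), against 59.6% of all genes. Without the filter on low values it was 19 of 20 (median 0.661). The 6 that changed by at least 1 kept more than 75% against LPS. Fads2 and Fads1 encode the delta-6 and delta-5 desaturases that turn linoleic and alpha-linolenic acid into longer polyunsaturated fatty acids. Fads2 was at 24.4, 24.29, 22.61, 26.82 and 23.42 FPKM in LPS+siAtg5, at 0.29, 5.27 and 3.25 FPKM in LPS+dNC and at 0.9, 0.92 and 1.07 FPKM in LPS libraries. Fads1 was at 20.49, 20.99, 20.48, 21.66 and 21.93 FPKM in LPS+siAtg5, at 4.93, 8.47 and 5.61 FPKM in LPS+dNC and at 7.81, 7.78 and 5.73 FPKM in LPS libraries. All 5 knockdown libraries were above all others for both genes, and LPS+dNC replicate 1 was the lowest of its group for both. The changes were 2.96 (SE 0.29, adjusted p = 4.52e-09) and 1.62 (SE 0.15, adjusted p = 1.77e-09), with 125% and 90% left.

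Scd2, a stearoyl-CoA desaturase of the brain that makes monounsaturated fatty acids, was at 54.09, 58.06, 51.75, 60.16 and 54.83 FPKM in LPS+siAtg5, at 0.43, 11.07 and 8.9 FPKM in LPS+dNC and at 4.41, 4.54 and 3.28 FPKM in LPS libraries (change 3.35). Scd1, the related desaturase, changed by 1.61, and by 0.95 without LPS+dNC replicate 1. Fads3 rose by 1.84 with 104% left, and Hacd2, Hacd3 and Hsd17b12, enzymes of the elongation cycle, rose by 0.88, 0.91 and 0.56. These genes moved with the astrocyte marker sum of 392.5 to 455.8 FPKM in LPS+siAtg5 libraries, against 28.19 to 61.57 FPKM in LPS+dNC libraries, and its part in their rise was not tested.

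Fatty acid synthesis and activation genes rose in 14 of 21 cases and fell in 2 (median 0.70). The share that rose is near the 59.6% of all genes, and after quantile normalization 13 rose and 7 fell (median 0.31). Me1, the malic enzyme that supplies NADPH for synthesis, was at 15.19 ± 0.348 FPKM in LPS+siAtg5, 2.93 ± 0.447 FPKM in LPS+dNC and 2.88 ± 0.0757 FPKM in LPS libraries (SD, n = 5, 3 and 3), though 30% of its 31-base words are shared with other genes. Gpam, which starts triglyceride synthesis, rose by 2.25 with 99.1% left, Mecr, of mitochondrial fatty acid synthesis, by 1.75 with 82.4% left, and Thrsp, a regulator of lipogenesis, by 1.57 with 98.8% left. Fasn, the fatty acid synthase, was at 8.83 FPKM in LPS+siAtg5, 1.29 FPKM in LPS+dNC and 2.96 FPKM in LPS libraries, with 61.4% left. Acsl1, which activates long-chain fatty acids, was lower in both transfected groups, at 36.37 FPKM in LPS+siAtg5, against 50.02 FPKM in LPS+dNC, against 160.9 FPKM in LPS libraries.

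Fatty acid oxidation genes and targets of PPAR, the nuclear receptors that fatty acids activate, rose in 17 of 24 cases and fell in 5 (median 0.62; 0.32 with median-of-ratios scaling), against 59.6% and 21.6% of all genes. Pparg was at 3.13, 2.58, 3.72, 3.34 and 2.91 FPKM in LPS+siAtg5, at 1.31, 0.29 and 0.17 FPKM in LPS+dNC and at 1.29, 0.61 and 1.04 FPKM in LPS libraries. The LPS+siAtg5 libraries were above all LPS+dNC and LPS libraries at these low levels, and 74.3% of the change of 1.44 (SE 0.25, limma adjusted p = 1.59e-05) was left. LPS+CLA libraries, at 0.58 to 3.24 FPKM, overlapped the LPS+siAtg5 libraries. Pdk4, a kinase that shifts cells from glucose to fatty acid use, was at 2.99 FPKM in LPS+siAtg5, against 0.0767 FPKM in LPS+dNC libraries (101% left), and Acadm, a dehydrogenase of beta-oxidation, rose by 1.18 with 59.3% left. Fabp7, the brain fatty acid binding protein of radial glia and astrocytes, was at 87.04, 90.77, 76.65, 105.1 and 76.05 FPKM in LPS+siAtg5 and at 5.95, 9.93 and 13.5 FPKM in LPS+dNC libraries, with 128% left. Fabp4 and Fabp3, further binding proteins and PPAR targets, fell by 2.37 and 1.47 through the LPS+dNC columns alone. Plin2 fell by 0.81 on the first of its lines, on which LPS+dNC libraries were again the ones apart, and rose by 8.73 on the second.

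Cholesterol synthesis rose in 20 of 23 genes (median 0.78), against 59.6% of all genes, and after quantile normalization 14 rose and 2 fell (0.31). The median against LPS was 1.42, and that of LPS+dNC against LPS was 0.58. Hmgcs1, which makes HMG-CoA, was at 36.58, 39.37, 37.42, 41 and 37.72 FPKM in LPS+siAtg5, at 10.33, 24.07 and 21.46 FPKM in LPS+dNC and at 9.71, 8.95 and 8.55 FPKM in LPS libraries. The knockdown libraries were above all others, and LPS+dNC replicate 1 was close to the LPS libraries. Sqle, squalene epoxidase, was at 14.2 FPKM in LPS+siAtg5, 4.82 FPKM in LPS+dNC and 1.24 FPKM in LPS libraries, and Fdft1, Cyp51 and Idi1, further enzymes of the route, rose, Fdft1 by 1.37, Cyp51 by 1.39 and Idi1 to 12.55 FPKM in LPS+siAtg5, against 5.54 FPKM in LPS+dNC libraries. The 7 members that changed by at least 1 all kept more than 75%. The gene of the regulator SREBP-2, Srebf2, rose by 0.92. The sterol-response core TCACNCCAC, searched in the same windows, was in 1 of 16 promoters of the list, that of Hmgcs1, and in 1.26% of promoters of genes tested.

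Cholesterol efflux genes and targets of LXR, the sterol-sensing nuclear receptor, rose against LPS+dNC in 13 of 18 cases (median 0.60), against 59.6% of all genes, but the median against LPS was -0.36. Abcg1, an exporter of cholesterol, was at 16.13, 20.85, 18.04, 15.03 and 17.61 FPKM in LPS+siAtg5, at 1.11, 0.71 and 1.62 FPKM in LPS+dNC and at 59.73, 61.7 and 78.11 FPKM in LPS libraries. The groups did not overlap, and LPS+siAtg5 lay 3.12 above LPS+dNC and 1.86 below LPS. Abca1, the other main exporter, was at 35.5 FPKM in LPS+siAtg5, 13.69 FPKM in LPS+dNC and 86.68 FPKM in LPS libraries. Mylip, which degrades the LDL receptor, and Cyp27a1, which makes an LXR ligand, likewise rose over LPS+dNC (1.46 and 1.08) and were lower than in LPS libraries (-1.11 and -0.93). Lpl, lipoprotein lipase, rose by 2.45 with 12.4% left. Each of these 5 genes kept less than 25% of its change or turned its direction against LPS. Ch25h, which makes 25-hydroxycholesterol, fell by 2.27 with 51.7% left, and Npc2, a lysosomal cholesterol carrier, fell by 0.34 but changed sign under quantile normalization.

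**Figure D5:**
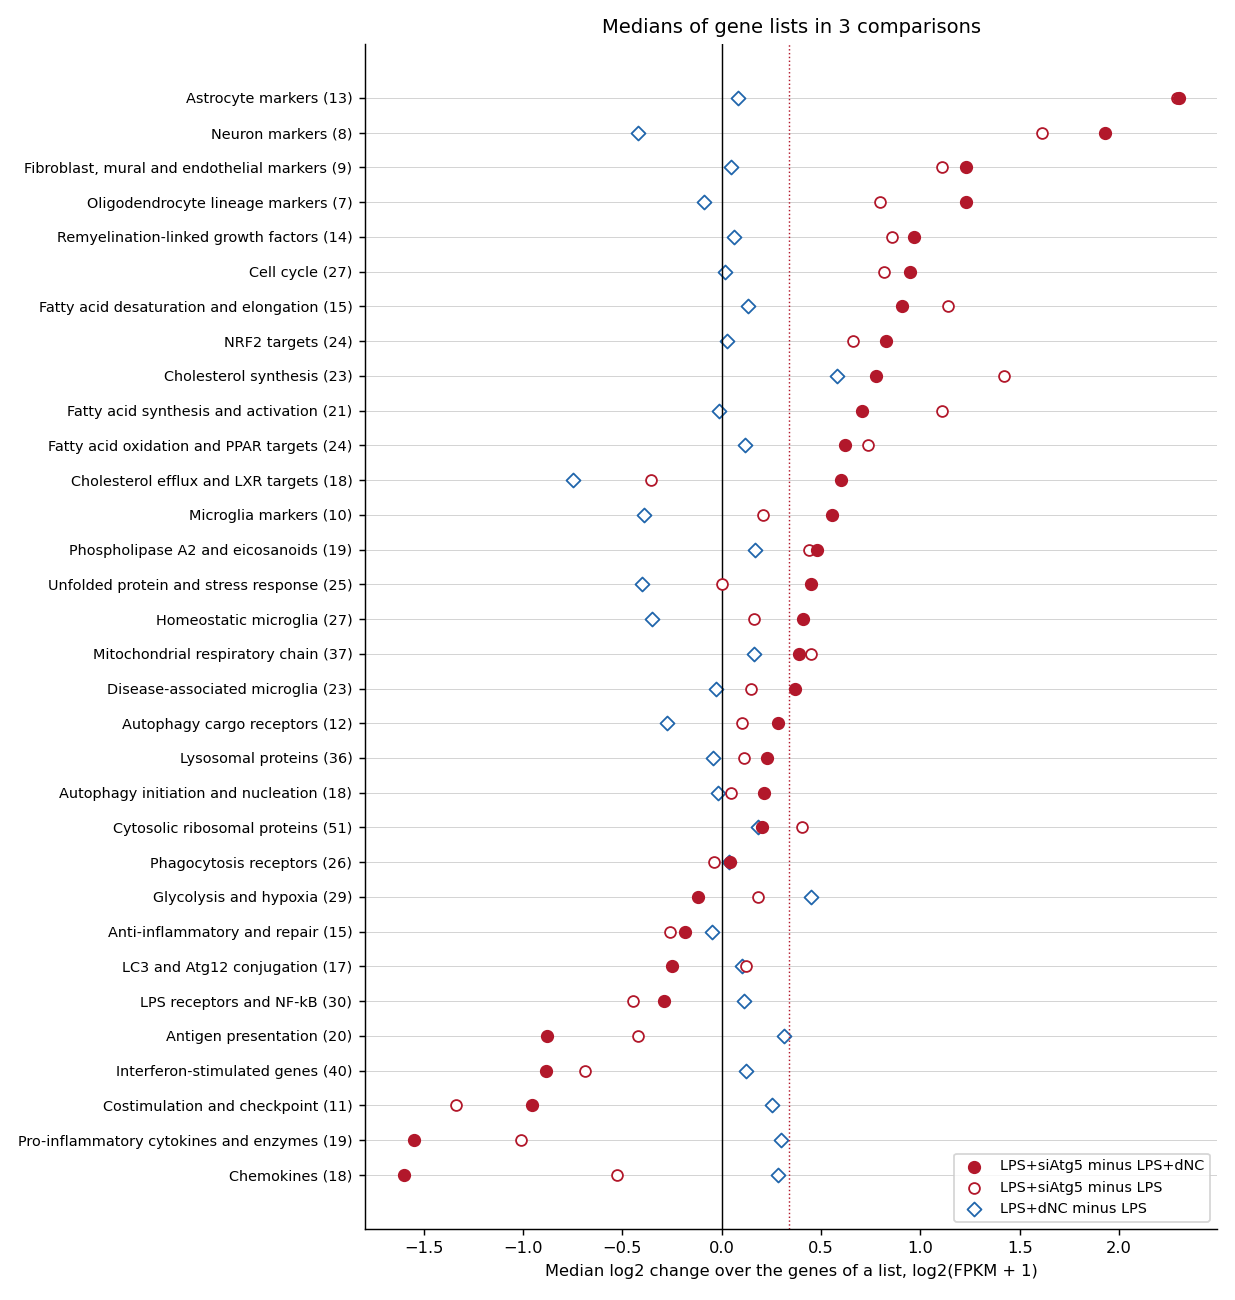
Median log2 change over the tested genes of each list (number of genes in brackets) for LPS+siAtg5 minus LPS+dNC (filled red), LPS+siAtg5 minus LPS (open red) and LPS+dNC minus LPS (open blue), with the median of all genes for the first comparison as a dotted line at 0.34. Fatty acid desaturation and cholesterol synthesis have both red symbols right of 0, cytokines, chemokines and interferon-stimulated genes have both left of 0, and cholesterol efflux has them on opposite sides.

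Some microglial identity genes also depended on the comparator. Cx3cr1, the fractalkine receptor, was at 14.09, 14.77, 12.98, 14.32 and 13.17 FPKM in LPS+siAtg5, at 0.27, 0.15 and 0.11 FPKM in LPS+dNC and at 9.63, 7.86 and 5.88 FPKM in LPS libraries. The control transfection columns were nearly empty, and 21.3% of the rise of 3.66 was left. Csf1r, the receptor on which microglia depend, was at 442.9 FPKM in LPS+siAtg5, 153.3 FPKM in LPS+dNC and 868.6 FPKM in LPS libraries, a rise of 1.54 over LPS+dNC and a fall of 0.92 against LPS. Aif1, which encodes the marker Iba1, was at 350, 339.5, 355.1, 374.9 and 348.2 FPKM in LPS+siAtg5, at 211.3, 175.1 and 185.7 FPKM in LPS+dNC and at 230.2, 248.4 and 295.2 FPKM in LPS libraries. It was highest in all knockdown libraries, and 51.7% of the rise of 0.89 (adjusted p = 3.57e-10) was left.

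Of 27 homeostatic microglia genes, 19 rose and 6 fell, against 59.6% and 21.6% of all genes. Their median of 0.41 was close to the 0.34 of all genes, and it was -0.35 for LPS+dNC minus LPS. Under median-of-ratios scaling 12 rose and 9 fell (median 0.09), and after quantile normalization 18 and 5 (0.56). Tmem119, a microglial surface protein, averaged 5.95 FPKM in LPS+siAtg5, 3.81 FPKM in LPS+dNC and 1.77 FPKM in LPS libraries, and P2ry12, the ADP receptor of resting microglia, fell by 0.44. Among 23 genes of disease-associated microglia, a state first described in mouse models of neurodegeneration, 15 rose and 5 fell (median 0.37), close to the shares of all genes, and with median-of-ratios scaling 9 rose and 7 fell (0.10). The lipid sensor Trem2 rose by 1.18 with 70% left and Timp2, an inhibitor of matrix proteases, by 2.30 with 98.9% left. Ctsd, cathepsin D, was at 2949 FPKM in LPS+siAtg5, 1216 FPKM in LPS+dNC and 1822 FPKM in LPS libraries, and 33.2% of its 31-base words are shared with other genes.

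Phagocytosis genes went both ways. Of 26, 12 rose and 10 fell, against 59.6% and 21.6% of all genes. Their median of 0.04 became -0.28 with median-of-ratios scaling and -0.01 without LPS+dNC replicate 3. Bridging molecules that tag dying cells rose: Gas6 was at 46.18 FPKM in LPS+siAtg5, 4.6 FPKM in LPS+dNC and 17.31 FPKM in LPS libraries (44.4% left), Pros1 rose by 1.93 with 91.1% left, and Mfge8 by 1.80 with 142% left. Megf10, an engulfment receptor of astrocytes, rose by 1.07. Several receptors of myeloid cells fell: Fcgr2b, the inhibitory antibody receptor, by 1.91 with 64% left, and Cd300lf and Fcer1g by 2.49 and 1.27 through the LPS+dNC columns alone. Mertk, a receptor for Gas6 and Pros1, fell by 0.61 and was at 33.56 FPKM in LPS+siAtg5, 51.8 FPKM in LPS+dNC and 33.5 FPKM in LPS libraries.

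Growth factors linked to remyelination rose in 9 of 14 cases (median 0.97), near the 59.6% of all genes, and after quantile normalization 7 rose and 4 fell (0.27). Members could pass the filter through the LPS+siAtg5 libraries alone, and without the filter 12 of 19 rose (median 0.639). Fgf2 was at 8.25, 8.7, 7.73, 8.37 and 7.86 FPKM in LPS+siAtg5, at 0, 0.1 and 0.07 FPKM in LPS+dNC and at 0.27, 0.51 and 0.29 FPKM in LPS libraries. It was well above all controls in each knockdown library (change 3.12, 88.5% left), and Tgfb3 was likewise (4.68 FPKM in LPS+siAtg5, against 0.123 FPKM in LPS+dNC libraries, 100% left). Cntf rose by 2.41, with 78.4% of its 31-base words shared with other genes. Pdgfb, a mitogen of mural cells and oligodendrocyte precursors, fell by 1.23 against LPS+dNC but lay above LPS libraries (-39.9% left). Fgf2 and Cntf are genes that astrocytes also express. Both were higher in LPS+siAtg5 libraries, as were the astrocyte markers, and the part of astrocytes in their rise was not tested.

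Targets of NRF2, the regulator of antioxidant defence, rose in 17 of 24 cases and fell in 5 (median 0.83), against 59.6% and 21.6% of all genes. Nqo1, a quinone reductase, was at 7.25, 9.09, 8.05, 8.59 and 8.92 FPKM in LPS+siAtg5, at 0.99, 1.5 and 1.24 FPKM in LPS+dNC and at 1.2, 1.13 and 1.48 FPKM in LPS libraries. Both controls were alike, as they were for Gclm, of glutathione synthesis (62.18 FPKM in LPS+siAtg5, 14.1 FPKM in LPS+dNC and 13.82 FPKM in LPS libraries). Sod2, the mitochondrial superoxide dismutase that NF-kB also induces, fell by 1.17 with 28.5% left.

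Glycolytic and hypoxia genes rose in 8 of 29 cases and fell in 13 (median -0.12), against 21.6% of all genes that fell. Without LPS+dNC replicate 1 there were 18 falls (-0.26), and with median-of-ratios scaling 20 (-0.44). LPS+dNC libraries were above LPS (median 0.45). Pfkfb3, which drives glycolysis in activated macrophages, was at 67.32 FPKM in LPS+siAtg5, 370.8 FPKM in LPS+dNC and 86.83 FPKM in LPS libraries, so the LPS+dNC columns alone made its fall of 2.44. Slc2a1, the glucose transporter, fell by 1.49 with 30.4% left. In contrast Slc16a1, a lactate transporter, rose by 2.67 with 107% left and Pfkm, a phosphofructokinase, by 1.65 with 110% left. Respiratory chain genes rose in 24 of 37 cases and fell in 7 (median 0.39), close to the shares of all genes, and with median-of-ratios scaling 14 rose and 12 fell (0.07). Sdha, a subunit of complex II, rose by 0.84 with 42% left.

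Stress response genes went both ways. Of 25 unfolded protein and stress response genes, 18 rose and 7 fell (median 0.45; 0.14 with median-of-ratios scaling), against 59.6% and 21.6% of all genes, and the median was -0.000942 against LPS. Trib3, a pseudokinase that ATF4 and CHOP induce, was at 2.51, 2.15, 1.82, 2.44 and 2.11 FPKM in LPS+siAtg5, at 11.79, 10.21 and 9.65 FPKM in LPS+dNC and at 17.29, 19.1 and 19.86 FPKM in LPS libraries, and it was lowest in the knockdown libraries against both (142% left). Atf4 and Ddit3, which encodes CHOP, fell by 0.85 and 0.91, and by more against LPS (1.12 and 1.53). The endoplasmic reticulum chaperone Hsp90b1 rose by 0.94 with 45.1% left.

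Cell cycle genes rose in 22 of 27 cases and fell in 3 (median 0.95), against 59.6% of all genes that rose. Quantile normalization reduced this to 12 that rose and 7 that fell (median 0.19). Cdkn1a, the inhibitor p21, was at 511 ± 13.1 FPKM in LPS+siAtg5, 190.9 ± 13.7 FPKM in LPS+dNC and 167.2 ± 6.75 FPKM in LPS libraries (SD, n = 5, 3 and 3; change 1.42). Several proliferation genes rose as well, at low levels, although E2f1, Tyms and Pcna fell. Top2a was at 4.23 FPKM in LPS+siAtg5, against 0.443 FPKM in LPS+dNC, with 79.3% left, and Rrm2 at 4.13 FPKM in LPS+siAtg5, against 0.28 FPKM in LPS+dNC, with 89.5% left. Cdk1 was at 8.23 FPKM in LPS+siAtg5, 0.983 FPKM in LPS+dNC and 4.28 FPKM in LPS libraries (37.6% left). Cytosolic ribosomal protein genes rose in 25 of 51 cases and fell in 17, against 59.6% and 21.6% of all genes, with a median of 0.20. With median-of-ratios scaling 16 rose and 25 fell (-0.12), whereas after quantile normalization 33 rose and 13 fell (0.33). Rpl22 rose by 2.33, and Rpl35 and Rps27 fell by 1.21 and 1.07, through the LPS+dNC columns alone.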

How the data were processed

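Poly(A)-selected RNA-seq of mouse primary microglia gave 22 libraries. Per the labels, libraries were sequenced on an Illumina Novaseq6000. The submitters' processing notes name CASAVA 1.7, fastp 0.18.0, Bowtie2 2.2.8, HISAT2 and StringTie 1.3.1, and the sources used here do not give the genome build. The deposited table holds FPKM per gene symbol, per the file headers, although no unit is written on those for LPS+dNC. No counts were used, so the depth per library and the counting error are unknown, and precision is limited by the number of libraries. The 22 single-sample files held the same values as the table.

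Values were taken as log2(FPKM + 1), and genes with at least 1 FPKM in 3 libraries were kept. The 5 groups of 22 libraries were fitted together with limma 3.58.1 in R 4.3.3, with a trended and robust variance, and p-values were adjusted by Benjamini-Hochberg. Single genes were also tested by exact permutation. The share of a change left against LPS is the change of LPS+siAtg5 against LPS divided by that against LPS+dNC. The fit was tested on simulated data. Gene positions, and the share of each gene's 31-base words found in other genes, came from GENCODE transcripts (GRCm38), and promoters from RefSeq (GRCm38.p6). Same-numbered libraries were not treated as pairs.

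Members and gene lists were chosen with earlier results of these data known. Named genes were a fixed set, the 6 largest changes per direction and share class, and up to 4 called members per list and direction with the smallest adjusted p. Other named genes, such as Ifit1, Isg15, Scd2, Hmgcs1, Sqle, Abca1, Csf1r, Atg3 and Plin2, were chosen after their values were seen. The use of the second Plin2 line was added after seeing the data. Alternatives tried were the mean of the 3 untransfected groups as the outside comparison, another pseudocount, other filters, scaling of libraries, array weights, a fit of 2 groups, a replicate block and leaving out each library. A few genes are not reported here.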

Additional observations from a re-analysis of the deposited data

Results flagged for a closer look

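Among the named genes and fixed members, 251 were checked for a single LPS+siAtg5 library that stood apart from the other libraries of its group, and 12 had one, where chance flags about 1 in 20 groups. LPS+siAtg5 replicate 5 was low for Rsad2, at 205.38 FPKM against 253.38 to 270.96 FPKM in the other 4, for H2-Q6, at 50.76 FPKM against 59.29 to 61.97 FPKM, and for Pcna, at 72.72 FPKM against 78.96 to 79.77 FPKM, and it was high for Mmp9, at 95.35 FPKM against 77.46 to 82.24 FPKM. Replicate 3 was low for Arg1, at 1.41 FPKM against 2.38 to 2.47 FPKM, and for Fdft1, at 11.19 FPKM against 12.08 to 12.14 FPKM. Replicate 2 was high for Ch25h, at 88.64 FPKM against 77.64 to 80.47 FPKM, and for Spp1, at 517 FPKM against 419.78 to 447.59 FPKM. Replicate 4 was high for Top2a, at 4.84 FPKM against 3.97 to 4.21 FPKM, and for Pdgfrb, at 1.78 FPKM against 1.36 to 1.47 FPKM. Replicate 1 was low for Lyz1, at 4.09 FPKM against 5.43 to 5.79 FPKM, and high for Olfr1033, at 0.32 FPKM against 0.01 to 0.02 FPKM. The cause was not tested for any of these.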

How the results depend on the processing

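Scaling moved the counts of calls most. Under median-of-ratios scaling, 3981 genes were lower in LPS+siAtg5 than in LPS+dNC, and 3963 were higher and 3833 lower than in LPS. Under quantile normalization 4206 genes were higher and 4362 lower than in LPS+dNC, and 3808 higher and 4221 lower than in LPS. Of genes that changed by at least 1, those that kept 25 to 75% against LPS were 318 higher and 339 lower under median-of-ratios scaling, 326 higher and 391 lower under quantile normalization, and 919 higher with a pseudocount of 0.1. Those that kept more than 75% were 257 lower under median-of-ratios scaling, 516 higher and 323 lower under quantile normalization, and 563 higher with a filter of 5 FPKM. With the mean of the untransfected groups in place of LPS, 354 higher genes kept less than 25% and 40 lower genes kept more than 75%. Median-of-ratios scaling reversed Xaf1 (-0.11), Becn1 (-0.2005), Sqstm1 (-0.28) and Optn (-0.23), and quantile normalization reversed Npc2 (0.11), Grn (0.18), Itgam (0.07431), Pdgfra (-0.13), Ulk1 (-0.21), Optn (-0.39) and Olig2 (-0.30). The second Plin2 line gave 8.73. Same-numbered libraries did not deviate together (r = -0.0214, 0.0906 and -0.035), and with the replicate number as a block 73.3% of calls were higher and no named gene changed its share class. The cause of these shifts was not tested, and with no counts the depth behind low values is unknown.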
